A study of Mus musculus with 13 samples.

Results

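The baseline described here is the transcriptome, mainly its protein-coding part, of newborn mouse retinal cells that received a GFP control plasmid. The 4 control RNA libraries were taken by their titles, out of 13 samples in the series, of which 8 were RNA libraries. Retinas of CD1 mice at postnatal day 0 (P0) were dissociated with the enzyme mixture Accutase and transfected by Amaxa nucleofection. After 9 h in culture the cells were sorted for GFP, with 400000 cells per replicate, and the labels name the cell type as retinal progenitor cells. The labels give no control other than the GFP condition, and no promoter or construct is named for the control plasmid. They call the 4 replicates biological, but do not say whether they came from separate litters or cultures, so the spread between them may be partly technical. Total RNA was depleted of ribosomal RNA and made into stranded libraries read in pairs. With 1 group there was no contrast to test, and every value is a description of these libraries.

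At birth the mouse retina still holds dividing multipotent progenitors. Ganglion, horizontal and cone cells, together with many amacrine cells, have largely been made by then, while rods, bipolar cells and Müller glia are still being produced. Progenitors keep a set of homeodomain and Sox factors and active Notch signalling, and cells that leave the cycle pass through a phase with proneural basic helix-loop-helix (bHLH) factors such as Neurog2 and Neurod1. Rods and cones begin as precursors that express Otx2 and Crx, long before they make opsins. In RNA from a mixed population, fewer cells of a type and less RNA per cell cannot be told apart.

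Levels are given in TPM, the share of transcripts in a library after scaling by transcript length, which sums to 1000000 in every library, so genes can be compared with each other. The libraries held 23484238, 21405714, 25490869 and 27132514 estimated read pairs in replicates 1 to 4. Across 16808 genes, Pearson's r of log2(TPM + 1) between pairs of libraries was 0.990 to 0.992. In a check for a library deposited more than once, the chi-square of the counts of 2 libraries per degree of freedom was 4.37 to 8.40, and all 4 were counted as samples. For a median gene of 10 to 100 TPM, 1068 read pairs lay behind each value, and the coefficient of variation (CV, the SD over the mean) was 6.71%, against 3.06% from counting alone.

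Of these genes, 14183 (84.4%) reached a mean of 1 TPM, 9822 (58.4%) reached 10 TPM, 1895 (11.3%) reached 100 TPM and 113 reached 1000 TPM. The median gene measured stood at 16.5 TPM. Genes with a mean under 5 normalised counts over all 8 RNA libraries in the authors' deposited table were left out. That table held 35734 genes, of which 16815 reached this mean, so medians and shares of genes describe the expressed part. By class, 15683 (93.3%) of the genes measured were protein-coding and 1124 were pseudogenes. Almost no gene of another class, such as long non-coding RNA, was measured, so ranks and shares of TPM leave such RNA out. The 100 highest genes measured took 26.3% ± 0.449 (SD, n = 4) of all TPM. Among them were 12 mitochondrial genes, 43 ribosomal protein genes, 5 pseudogenes on chromosome 1, 8 other pseudogenes and 32 other protein-coding genes.

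The highest value belonged to mt-Atp8, a subunit of the mitochondrial ATP synthase, at 37149, 40186, 39975 and 36282 TPM in replicates 1 to 4. All libraries lay close together, and none reached the range of the next gene. This transcript is only 204 bases long, and by library-scaled read pairs, without the length scaling, it ranked 26 in place of 1. Eef1a1, the factor that brings aminoacyl-tRNA to the ribosome, was the highest nuclear gene at 9310.0, 9711, 9317 and 9629.9 TPM, and it ranked first by read pairs. Its range overlapped that of mt-Co1, a subunit of cytochrome c oxidase, at 10211, 9491, 9460.4 and 8731 TPM. Of the 19 neighbouring pairs in the list of 20 highest genes, 17 had overlapping ranges. Most of this order was therefore not resolved by the ranges over 4 libraries.

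**Figure D1:**
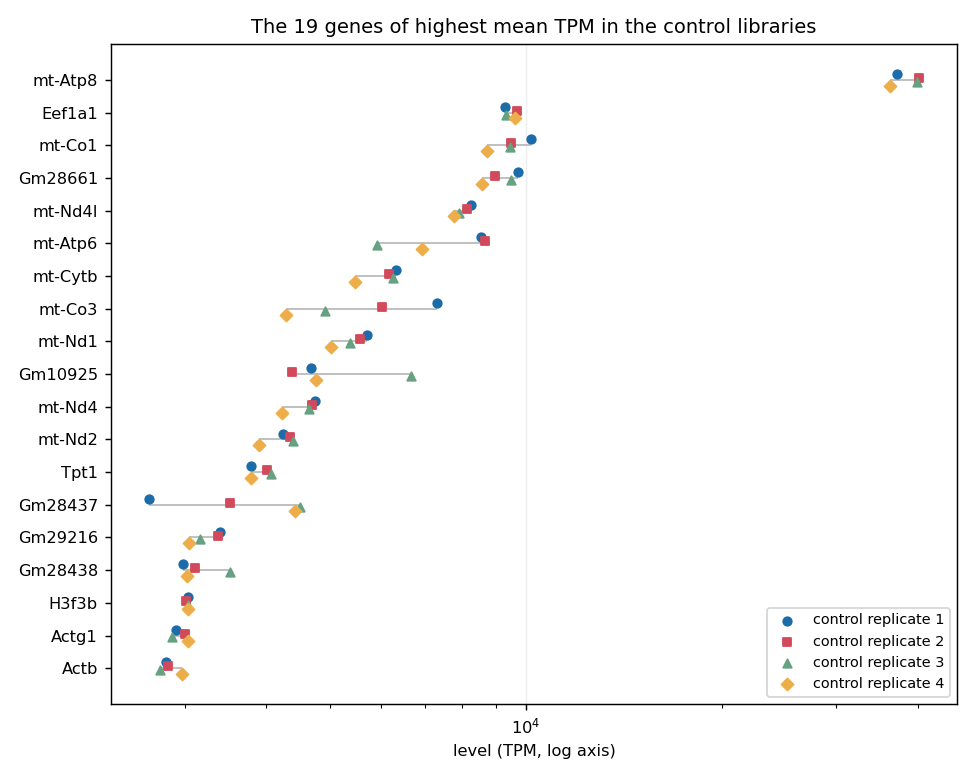
Levels of the 19 genes of highest mean TPM (horizontal log axis) in the 4 control libraries, 1 marker per library, with a grey line from the lowest to the highest. mt-Atp8 stands alone at 36282 to 40186 TPM, while most neighbours overlap, and mt-Co3, Gm28437, Gm10925 and mt-Atp6 have the widest ranges.

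Outside the mitochondrial and ribosomal groups the list was led by genes of growth and the cytoskeleton. Tpt1, which encodes the translationally controlled tumour protein, measured 3909 ± 146 TPM (SD, n = 4). The replacement histone gene H3f3b measured 3026 ± 12.5 TPM, and its CV of 0.413% made it the steadiest of the 20. The cytoplasmic actins Actg1 and Actb measured 2950.5 ± 80.5 TPM and 2838 ± 92.7 TPM, with overlapping ranges. Further down came the cyclophilin gene Ppia at 2554 ± 16.1 TPM and, at rank 26, the intermediate filament gene Vim at 2165 ± 171 TPM. The neuronal tubulin gene Tuba1a measured 1858 ± 42.5 TPM, and Hsp90ab1, the constitutive cytosolic HSP90 chaperone, 1746 ± 106 TPM.

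5 pseudogenes that lie side by side on the minus strand of chromosome 1 stood at levels like those of mitochondrial genes. Gm29216, Gm28661, Gm10925, Gm28437 and Gm28438 run from chr1:24616197 down to chr1:24612775 in the coordinates of the authors' deposited table, in the order of mt-Co1, mt-Co2, mt-Atp6, mt-Co3 and mt-Nd3. The transcripts of the last 4 are 1 to 3 bases shorter than those of the mitochondrial genes at the same place in that order. Salmon divides reads that fit several transcripts between them, so the split within each pair is uncertain. For mt-Co3, a cytochrome c oxidase subunit, the libraries gave 7312, 6019, 4924 and 4292 TPM, and for Gm28437 2642, 3519, 4501 and 4431 TPM. The CVs were 23.5% and 23.2%, but the sum had a CV of only 5.43%. The sum was also steadier for mt-Atp6 and Gm10925, with CVs of 17.7% and 20.3% alone and 5.39% summed. For mt-Co2 most of the signal was placed on the copy, at 9189 ± 523 TPM against 1282 ± 324 TPM on the mitochondrial gene. The 13 mitochondrial genes held 9.41% ± 0.533 (SD, n = 4) of TPM and the 5 copies another 2.45% ± 0.190. By read pairs the mitochondrial genes held only 2.71% ± 0.219.

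**Figure D2:**
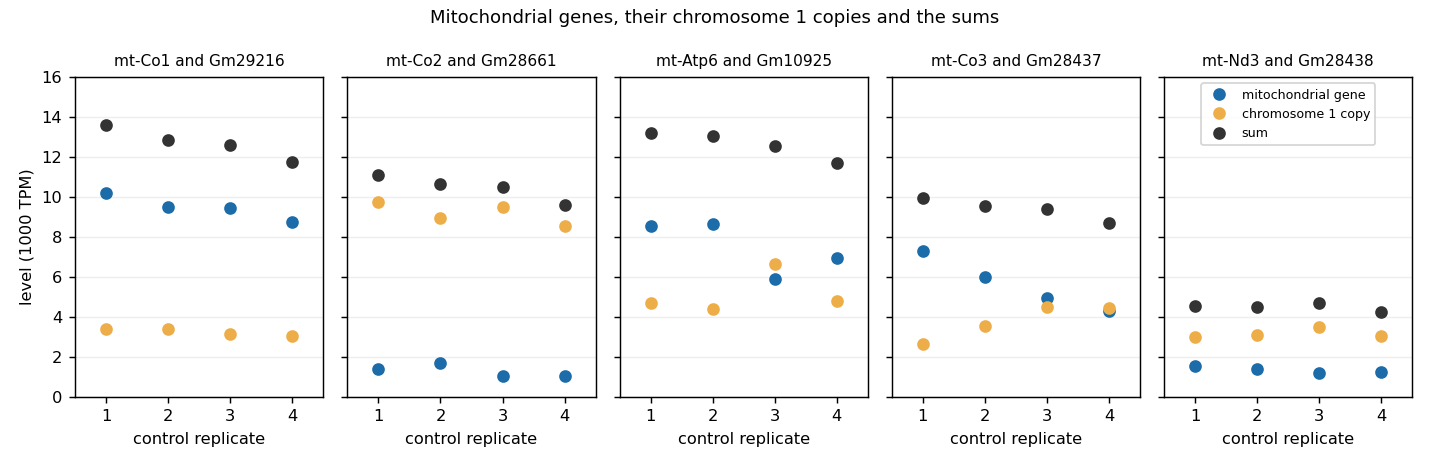
Levels (vertical axis, in units of 1000 TPM) of 5 mitochondrial genes (blue), the chromosome 1 pseudogene matched to each by order (yellow) and their sum (black) in control replicates 1 to 4. In replicate 3 mt-Atp6 is lowest and its copy highest, and in replicate 1 mt-Co3 is highest and its copy lowest, while the sums stay within 11701 to 13226 TPM and 8724 to 9954 TPM.

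Ribosomal protein genes, 88 of them matched by symbol, held 9.28% ± 0.107 (SD, n = 4) of TPM, with a range over libraries of 9.17% to 9.41%. Rps29 measured 2323 ± 44.7 TPM, Rpl13a 2299 ± 111 TPM, Rps24 2296 ± 46.5 TPM and Rplp1 2014 ± 59.3 TPM. These genes are known for a run of pyrimidines at the start of their mRNAs, through which their translation is controlled.

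The promoters of the highest genes are shown because the share of genes with each letter pattern differed between level classes. RefSeq start sites on GRCm38.p6 were matched by symbol for 12277 protein-coding genes (78.3%). A C followed by 6 bases that are each C or T, lying on the gene's strand between 5 bases before and 12 after the start, was present in 24.2% of 62 genes of at least 1000 TPM. It was present in 7.43% of the genes of 100 to 1000 TPM, in 6.73% of those under 1 TPM and in 6.47% of all 27025 promoters of the same length. Of 64 ribosomal protein genes, 22 (34.4%) held it. Ribosomal protein genes were 43 of the 100 highest genes, so this group overlaps the class of at least 1000 TPM. The share in that class without them was not counted. The letters TATAAA within 40 to 20 bases before the start, on the gene's strand, were present in 4.84% of the genes of at least 1000 TPM, which is 3 genes. They were present in 1.24% of those of 100 to 1000 TPM, 0.609% of those of 10 to 100 TPM, 2.53% of those of 1 to 10 TPM, 2.51% of those under 1 TPM and 2.09% of all promoters, with no order by level. The 3 genes of highest TPM with each feature follow from 45 bases before the start to 20 after it, 5′ to 3′, with the feature in capitals.
Eef1a1 (chr9:78481705-78481769, minus strand): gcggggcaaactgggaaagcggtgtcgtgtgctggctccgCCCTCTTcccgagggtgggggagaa
Rpl13a (chr7:45128726-45128790, minus strand): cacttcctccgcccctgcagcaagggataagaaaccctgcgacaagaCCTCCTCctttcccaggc
Rps24 (chr14:24490633-24490697, plus strand): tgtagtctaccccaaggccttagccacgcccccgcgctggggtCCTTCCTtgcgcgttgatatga
H3f3b (chr11:116024485-116024549, minus strand): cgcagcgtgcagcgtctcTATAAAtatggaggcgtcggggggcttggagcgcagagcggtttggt
Ppia (chr11:6415822-6415886, plus strand): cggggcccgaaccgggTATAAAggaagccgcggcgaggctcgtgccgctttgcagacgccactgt
Vim (chr2:13574266-13574330, plus strand): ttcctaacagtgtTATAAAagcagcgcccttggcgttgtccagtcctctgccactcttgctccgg

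The CpG content of the 300-base promoter window went with the level across its whole range. The ratio of CpG found to CpG expected from the C and G content had a median of 0.327 in genes under 1 TPM and 0.592 in those of 1 to 10 TPM. It was 0.799 in genes of 10 to 100 TPM, 0.851 in those of 100 to 1000 TPM and 0.928 above that, against 0.389 for all promoters in the table. A match of letters is a description of the window and names no bound factor.

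The labelled cell type was checked against marker lists. All 20 progenitor markers were measured above 1 TPM, a level that 84.4% of all genes reached. Their median of 82.7 TPM lay above 85.3% of genes, the highest of the 17 cell type lists with a measured member. Pax6 (chr2:105668900-105697364), a homeodomain regulator of eye formation, led them at 382, 359, 366 and 365 TPM. Its 4 values differed little, with a CV of 2.67%. Rax, the retinal homeobox factor that specifies the eye field, measured 221, 184, 185 and 185 TPM. Replicate 1 was the high one, and the other 3 were nearly equal. The chromatin protein gene Hmga2 measured 245 ± 9.11 TPM (SD, n = 4), the G1 cyclin gene Ccnd1 235 ± 10.01 TPM and the neural progenitor factor Sox2 160.1 ± 4.41 TPM. The other members ran down to Sfrp2, a secreted inhibitor of Wnt signalling, at 7.49 ± 1.06 TPM.

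Genes of cells leaving the cycle were well represented too. The 20 neurogenic precursor markers had a median of 40.4 TPM, and only Neurod6 stood under 1 TPM. Of them, 6 reached 100 TPM, a level that 11.3% of all genes reached. Neurod4 (chr10:130268152-130280240), a bHLH factor of young amacrine, bipolar and photoreceptor cells, gave 440.1, 374, 370.2 and 382 TPM. Otx2, which commits cells to the photoreceptor and bipolar fates, gave 373, 322, 346 and 342 TPM. Replicate 1 was the highest library for both. Hes6, a helix-loop-helix antagonist of Hes1, measured 280.3 ± 18.3 TPM (SD, n = 4), Neurod1 235 ± 17.6 TPM and the antiproliferative gene Btg2 169 ± 8.23 TPM. The proneural factor Neurog2 gave 52.97, 39.8, 34.5 and 33.4 TPM. It was highest in replicate 1 and next in replicate 2, with replicates 3 and 4 close to each other.

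Of 13 photoreceptor precursor markers 9 were above the median gene, while the genes of mature rods and cones were mostly low. Crx, the homeodomain activator of photoreceptor genes, measured 235, 193, 194 and 212 TPM, again highest in replicate 1. Prdm1, which holds precursors in the photoreceptor fate, measured 78.7 ± 7.05 TPM (SD, n = 4). Nrl and Nr2e3, the factors that set rod over cone identity, measured 23.3 ± 2.74 TPM and 12.6 ± 2.25 TPM. Of 27 rod markers, 11 reached 10 TPM, against 58.4% of all genes, and their median was 6.94 TPM. Gnb1, a G protein beta subunit that is also made outside rods, was highest at 596 ± 24.3 TPM, then Rbp3, the interphotoreceptor retinoid carrier, at 90.8 ± 10.9 TPM, Impg2 of the interphotoreceptor matrix at 48.5 ± 4.66 TPM, the phosphodiesterase subunit Pde6g at 39.8 ± 3.86 TPM and the disc protein gene Rom1 at 31.3 ± 3.39 TPM.

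Among 12 cone markers, 3 reached 10 TPM, against 58.4% of all genes. Gngt2, the gamma subunit of cone transducin, measured 172 ± 17.8 TPM (SD, n = 4), the beta subunit gene Gnb3 126 ± 13.5 TPM and Ccdc136 42.01 ± 2.57 TPM. The alpha subunit gene Gnat2 measured 8.74 ± 2.05 TPM, and Thrb, the thyroid hormone receptor of M cones, 7.08 ± 2.48 TPM. The short-wavelength opsin Opn1sw stood at 2.34 ± 0.167 TPM. Arr3 and Opn1mw, the cone arrestin and the medium-wavelength opsin, were not joined because their mean over all 8 RNA libraries in the authors' deposited table was under 5 normalised counts.

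The 5 highest genes of the retinal ganglion cell list were axonal or neuronal, while the factors Pou4f2 and Pou4f1 were low. Gap43, a growth cone protein, measured 199 ± 8.75 TPM (SD, n = 4), the neuronal tubulin Tubb3 147 ± 4.85 TPM, the microtubule regulator Stmn2 138 ± 3.49 TPM and the neurofilament genes Nefm and Nefl 135 ± 3.78 TPM and 69.00 ± 1.37 TPM. These 5 genes are also made by other young neurons. Pou4f2, the defining ganglion cell factor, gave 0.0731, 0.135, 0.159 and 0.0649 TPM, which rests on 3 to 7 read pairs per library. Pou4f1 reached 5.35 ± 1.23 TPM, Thy1 7.33 ± 1.36 TPM and the RNA-binding protein gene Rbpms 12.2 ± 1.92 TPM. Not every factor of the list was as low, since Klf7 measured 34.0 ± 2.24 TPM and Ebf3 10.5 ± 0.551 TPM. Of 25 markers, 7 were under 1 TPM, a level that 84.4% of all genes reached.

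Amacrine markers had a median of 9.50 TPM over 19 genes, below the median gene, but above 53.1% of genes by TMM-scaled CPM, a library-scaled count without the length scaling. The nuclear receptor gene Nr4a2 measured 50.05 ± 1.70 TPM (SD, n = 4), but 32.2% of that lay on transcripts shorter than 300 bases. Its place relative to the next factors is therefore uncertain. The AP-2 factors Tfap2b and Tfap2a measured 48.6 ± 5.41 TPM and 43.6 ± 4.72 TPM. The factors Nhlh2 and Barhl2 measured 35.5 ± 3.12 TPM and 33.9 ± 2.00 TPM. Genes of transmitter use stood below these 5 factors, though not below every factor of the list, since Tfap2c measured 8.51 ± 0.522 TPM. The glycine transporter Slc6a9 measured 22.9 ± 2.15 TPM, the GABA-synthesising enzymes Gad2 and Gad1 19.2 ± 2.21 TPM and 8.14 ± 0.893 TPM, and tyrosine hydroxylase, Th, 0.564 ± 0.339 TPM. Horizontal cell markers had a median of 3.76 TPM. Their higher members, Tfap2b and Prox1 at 36.4 ± 0.897 TPM, are shared with amacrine or other cells, while Lhx1 and Onecut3 are more particular to horizontal cells. Lhx1 gave 0.582, 0.180, 0.188 and 0.125 TPM from only 7 to 14 read pairs, highest in replicate 1, and Onecut3 measured 0.191 ± 0.0460 TPM. Between these and Prox1 stood the nuclear receptor gene Esrrg at 10.8 ± 0.650 TPM, Onecut2 at 4.49 ± 0.111 TPM and the calbindin gene Calb1 at 3.76 ± 0.974 TPM. Among 14 bipolar markers only Irx5 and Lhx4 reached 10 TPM, at 24.03 ± 1.96 TPM for Irx5 and at 13.5, 11.8, 11.05 and 11.7 TPM for Lhx4 in replicates 1 to 4. Fezf2, Isl1 and Prkca, 2 transcription factors and a protein kinase C gene, followed at 9.18 ± 1.64 TPM, 8.91 ± 1.51 TPM and 8.47 ± 1.42 TPM. Trpm1, the channel of ON bipolar cells, measured 0.556 ± 0.335 TPM, and 5 further bipolar markers, Grm6 and Vsx1 among them, had a mean under 5 normalised counts in the authors' deposited table.

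Müller glia share much of their expression with progenitors, and the 18 measured genes of their list had a median of 64.6 TPM. Vim was the highest at 2102, 2189, 1981 and 2388 TPM, with replicate 3 lowest and replicate 4 highest. Crym, a thyroid hormone-binding protein, measured 408 ± 34.1 TPM (SD, n = 4), the carbonic anhydrase Car2 201 ± 6.77 TPM, glutamine synthetase, Glul, 149 ± 5.61 TPM and the peroxiredoxin Prdx6 125 ± 9.68 TPM. The retinaldehyde-binding protein Rlbp1 reached 14.6 ± 0.582 TPM. Gfap measured 2.29 ± 1.36 TPM and the potassium channel Kcnj10 1.43 ± 0.204 TPM, and the water channel gene Aqp4 was below 5 normalised counts in the authors' deposited table. Hes1 and Id1 stand in both this list and that of progenitors.

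Markers of cells from outside the neural retina were mostly low, apart from a pair of receptor genes. The highest of 10 microglial markers was the cathepsin gene Ctss at 2.17 ± 0.867 TPM (SD, n = 4), then Fcer1g, Tyrobp, C1qb and Csf1r at 1.58, 1.17, 0.832 and 0.783 TPM. Their summed level was 5.81 to 11.8 TPM per library. Mesenchymal and pericyte markers summed to 9.54 to 10.9 TPM, mostly from the collagen gene Col1a1 at 6.44 ± 0.646 TPM. Acta2, Col1a2, Foxc1 and Rgs5 measured 1.13, 0.777, 0.395 and 0.306 TPM. In the endothelial list the VEGF receptors Kdr and Flt1 measured 144 ± 10.8 TPM and 30.2 ± 1.85 TPM, followed by Egfl7 at 9.90, Esam at 3.57 and the adhesion molecule Pecam1 at 2.27 TPM. The junction gene Cldn5 was at 0.933 TPM, the receptors Tek and Tie1 at 0.349 and 0.191 TPM, and Cdh5 and Emcn had means under 5 normalised counts in the authors' deposited table. Kdr is also known from retinal progenitors.

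The remaining lists were low as well. The astrocyte markers Gfap, Pax2, Pdgfra and Aldh1l1 summed to 3.34 to 6.44 TPM, and the highest genes of pigment epithelium were Mitf, Rgr, Dct, Pmel and Tyr at 2.93, 2.51, 1.34, 0.702 and 0.650 TPM. Lens markers were led by the crystallin genes Crybb3 at 11.7 ± 1.91 TPM (SD, n = 4) and Cryab at 5.80 ± 0.387 TPM, with Bfsp2 and Bfsp1 at 0.730 and 0.424 TPM. Epcam, Krt15 and Krt5 of surface epithelium were at 8.22, 1.42 and 0.375 TPM. All 8 red blood cell genes, the adult globins included, had means under 5 normalised counts in the authors' deposited table.

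**Figure D3:**
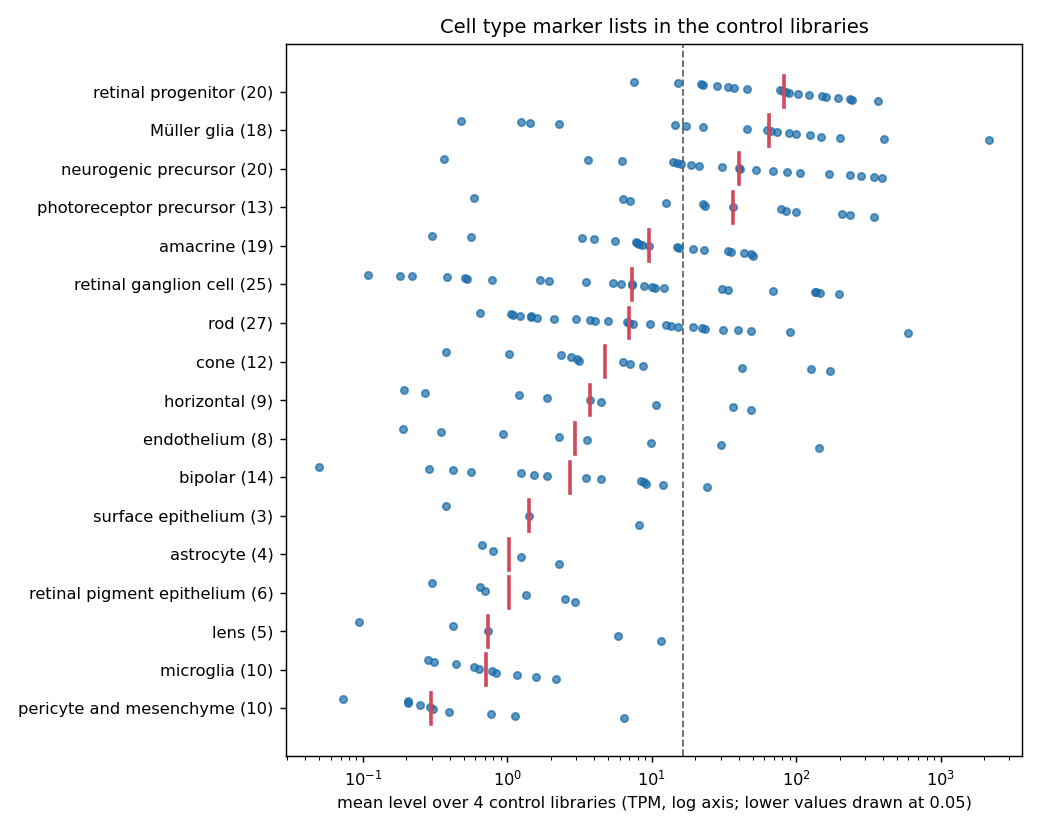
Mean TPM (horizontal log axis) of each measured member of 17 cell type marker lists, with the number measured in brackets, the list median as a red bar and the median of all genes as a dashed line. The medians of the progenitor, Müller glia, neurogenic and photoreceptor precursor lists lie to the right of that line, and the other 13 to its left.

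Proliferation genes were present in every library. Cdk4, the kinase partner of D cyclins, measured 630.03 ± 11.3 TPM (SD, n = 4), and its cyclin Ccnd1 was the next of the G1 list. Ccnd3, Cdk2 and Cdk6 measured 41.4, 24.1 and 15.9 TPM, and Ccnd2 only 2.54 TPM. All 18 S phase genes and all 18 G2 and M genes exceeded 1 TPM, a level that 84.4% of all genes reached. Their medians were 43.4 and 44.2 TPM, above 71.4% and 71.9% of genes. The replication clamp Pcna measured 152 ± 10.8 TPM, the histone mRNA-binding protein gene Slbp 94.97 ± 4.55 TPM, the helicase subunit Mcm7 93.9 ± 5.79 TPM, and the nucleotide enzymes Rrm1 and Dut 65.8 ± 2.45 TPM and 56.7 ± 2.78 TPM. Of the mitotic genes, the topoisomerase Top2a measured 179 ± 8.83 TPM, Hmgb2 146 ± 17.1 TPM, the kinase Cdk1 118 ± 8.58 TPM and the proliferation marker Mki67 90.8 ± 8.44 TPM. The ubiquitin-conjugating enzyme Ube2c gave 105, 108, 85.1 and 108 TPM, with replicate 3 apart from the other 3.

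The 11 inhibitors of the cycle had a median of 27.9 TPM, above 60.9% of genes. Of them, 3 reached 100 TPM, against 11.3% of all genes. Cdkn1a, which encodes p21, gave 501, 494, 500.1 and 506 TPM, a level that hardly varied. Cdkn1b, which encodes p27, measured 157 ± 6.59 TPM (SD, n = 4), the retinoblastoma gene Rb1 69.3 ± 2.38 TPM and Gadd45a 53.1 ± 3.77 TPM. Cdkn1c, the p57 gene, measured 21.2 ± 2.78 TPM, and Cdkn2a 1.61 ± 0.325 TPM.

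In the Notch pathway, through which neighbouring progenitors restrain each other from differentiating, all 17 genes exceeded 1 TPM, a level that 84.4% of all genes reached. The median of the list, 28.4 TPM, lay above 61.3% of genes, and by TMM-scaled CPM above 57.4%. Among ligands Dll1 measured 69.3 ± 4.88 TPM (SD, n = 4), Jag2 36.4 ± 5.22 TPM, Dll3 21.4 ± 2.52 TPM, Dll4 14.1 ± 0.340 TPM and Jag1 2.90 ± 0.277 TPM. Among receptors Notch1 gave 132, 167, 150.1 and 153 TPM, lowest in replicate 1 and highest in replicate 2. Its read pairs, 12732, 12104, 13789 and 15501 in libraries of different depth, did not follow that order. Without transcripts under 300 bases the level of Notch1 moved by over 1 SD. Notch2 and Notch3 measured 13.9 ± 0.975 TPM and 5.48 ± 0.286 TPM, ranges that lay below that of Notch1. The protease Adam10, which cleaves the receptor, measured 48.8 ± 2.08 TPM and the DNA-binding partner Rbpj 53.4 ± 0.935 TPM. The target repressors Hes1 and Hes5 measured 45.4 ± 2.97 TPM and 28.3 ± 3.89 TPM, and Hey1 15.2 ± 1.07 TPM.

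Temporal identity factors mark early or late phases of retinal neurogenesis. Hmga2 was the highest of 20. Ikzf1 (Ikaros), known for early phases, gave 100.3, 84.8, 74.1 and 92.2 TPM in cells that had received GFP, from 1617 to 2190 read pairs per library. Libraries were pooled for sequencing, per the labels, in a series that also held cells given Ikzf1, and carry-over of reads between libraries was not tested. Casz1, known for later phases, measured 57.8 ± 2.87 TPM (SD, n = 4), and the Ikaros family members Ikzf5, Ikzf4 and Ikzf2 51.5 ± 4.78 TPM, 8.31 ± 0.715 TPM and 5.52 ± 0.656 TPM. Sox8, Lhx2 and Zfp36l1 measured 85.2 ± 7.97 TPM, 84.9 ± 3.05 TPM and 80.5 ± 7.41 TPM, 3 levels with overlapping ranges. The nuclear factor I genes, which act in late progenitors, measured 30.9 ± 2.43 TPM for Nfix, 22.4 ± 3.85 TPM for Nfic, 20.6 ± 1.71 TPM for Nfib and 17.8 ± 1.56 TPM for Nfia. Lin28b and Lin28a, RNA-binding proteins of early progenitors, were at 0.960 ± 0.133 TPM and 0.228 ± 0.160 TPM.

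Immediate early genes, which are induced within minutes of stimulation, had a median of 78.1 TPM, above 84.4% of genes. All 17 reached 10 TPM, a level that 58.4% of all genes reached. The zinc finger factor Egr1 gave 353, 361, 341 and 351 TPM. The AP-1 subunits Jund, Jun, Junb and Fos measured 272 ± 24.9 TPM, 253 ± 8.80 TPM, 159 ± 10.3 TPM and 98.2 ± 4.77 TPM (SD, n = 4). Ier2 measured 138 ± 4.44 TPM. Replicate 1 was highest for Jund, whose other 3 libraries lay within 255 to 266 TPM.

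Stress response genes had the highest median TPM of the lists examined, 169 TPM, above 94.6% of genes. By TMM-scaled CPM their median lay above 85.9% of genes, below those of p53 targets at 86.5% and progenitor markers at 86.4%. Hspa8, the constitutive HSP70, gave 1088, 1068, 1042 and 1184 TPM. The metallothionein Mt2 measured 1066 ± 46.7 TPM (SD, n = 4), and Atf4, the factor of the integrated stress response, 944 ± 38.01 TPM. Hsp90aa1 measured 829.6 ± 59.6 TPM and the endoplasmic reticulum chaperone Hspa5 652 ± 42.04 TPM. Ddit3 and Asns, known targets of Atf4, measured 247 ± 3.96 TPM and 230.4 ± 9.65 TPM. The heat-inducible genes Hspa1a and Hspa1b were low, at 2.77 ± 0.486 TPM and 5.32 ± 1.49 TPM.

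Targets of p53 were high in the same libraries. Apart from Cdkn1a, the ubiquitin ligase gene Mdm2 measured 267 ± 19.9 TPM (SD, n = 4), the cyclin G gene Ccng1 265 ± 8.82 TPM, the apoptosis gene Bax 259 ± 10.8 TPM and Phlda3 104 ± 0.630 TPM. The death-promoting genes Bbc3 and Pmaip1 measured 76.6 ± 8.04 TPM and 23.8 ± 0.816 TPM, and the death receptor gene Fas 4.79 ± 0.531 TPM. Interferon-stimulated genes had a median of 18.5 TPM. Among them Bst2 measured 59.01 ± 3.92 TPM, Oasl2 53.99 ± 2.70 TPM, the interferon regulatory factor Irf7 26.9 ± 1.51 TPM and Rsad2 19.5 ± 2.07 TPM. With neither untransfected cells nor a time course in the RNA samples, these levels could not be compared with those before dissociation and transfection.

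Of 230 listed transcription factors, 226 were measured, 163 reached 10 TPM, 38 reached 100 TPM and 15 were under 1 TPM. Among all genes 58.4% reached 10 TPM, 11.3% reached 100 TPM and 84.4% reached 1 TPM. The median of the listed factors was 30.7 TPM. The order was headed by Hmga1 (chr17:27556497-27563674), an architectural chromatin protein, at 1012, 1011, 945 and 1095 TPM, and by Atf4 at 892, 939, 969 and 976 TPM. Their ranges overlapped, and Atf4 was above Hmga1 in replicate 3. The cold-shock protein gene Ybx1 at 762 ± 12.3 TPM (SD, n = 4) and the chromatin protein gene Hmgb1 at 635 ± 17.3 TPM held the third and the fourth place in every library. Neither overlapped its neighbours. From Neurod4 in the fifth place to Rax in the twentieth, every neighbouring pair had overlapping ranges. Within each library, Neurod4 still held the fifth and Zbtb18 the ninth place. Tcf4, a bHLH factor with a mean of 6792 normalised counts over all 8 RNA libraries in the authors' deposited table, could not be joined to its transcripts and is missing from this order.

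Between Neurod4 and Rax stood factors of several classes. Pax6, Egr1 and Otx2 came sixth to eighth. Zbtb18, a zinc finger repressor of brain development, measured 311 ± 10.1 TPM (SD, n = 4), but 38.1% of that lay on transcripts shorter than 300 bases. Without these it stood at 192 TPM. Hmgb3 measured 223 ± 7.08 TPM, Sox4, a factor of young neurons, 208 ± 8.06 TPM, the clock factor Arntl 205 ± 12.97 TPM and the E protein gene Tcf12 198 ± 6.61 TPM. By read pairs without the length scaling, 14 of these 20 factors stayed among the 20 highest.

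**Figure D4:**
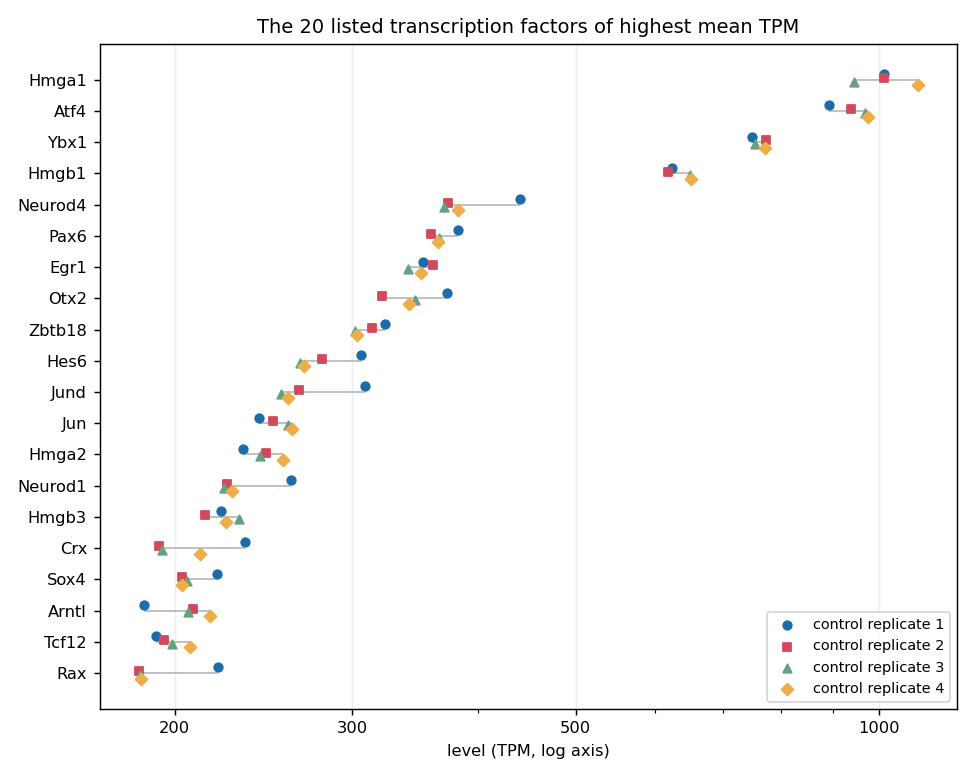
Levels (horizontal log axis, TPM) of the 20 listed transcription factors of highest mean TPM in the 4 control libraries, 1 marker per library, with a grey line from the lowest to the highest. Ybx1 and Hmgb1 are separated from their neighbours, and replicate 1 is the highest library for Neurod4, Pax6, Otx2, Zbtb18, Hes6, Jund, Neurod1, Crx, Sox4 and Rax.

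By family, bHLH factors were led by Neurod4, Hes6 and Neurod1, homeodomain factors by Pax6, Otx2 and Crx, and zinc finger factors by Egr1, Zbtb18 and the insulator protein gene Ctcf at 137 ± 2.64 TPM (SD, n = 4). Sox factors were led by Sox4, Sox2 and Sox11, the last at 97.4 ± 3.43 TPM. The leading forkhead genes Foxo3, Foxk2 and Foxj3 measured 60.9 ± 1.07 TPM, 60.9 ± 0.515 TPM and 58.7 ± 3.99 TPM, and their ranges overlapped. Nuclear receptors were led by Rorb, an orphan receptor needed for rod formation, at 113 ± 3.91 TPM, the glucocorticoid receptor Nr3c1 at 103 ± 7.01 TPM and the thyroid hormone receptor Thra at 92.4 ± 3.38 TPM. The homeodomain family ran from Pax6 down to Pou4f2, and its median of 15.4 TPM lay below the median gene, but by TMM-scaled CPM above 58.4% of genes.

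The transcript level adds how each factor's signal was divided. Among 136 listed factors of at least 20 TPM, the largest transcript held a median of 69.01% of the gene's TPM. In 38 of them it held at least 90%, and in 54 it held under 60% with a second transcript above 1 TPM. The shares below are those of the 10 highest of these 54. Pax6 had 26 annotated transcripts, and its largest share was 24.8, 24.6, 26.2 and 28.9% in replicates 1 to 4, followed by 21.1, 20.6, 19.2 and 13.9%. The 2 ranges did not overlap, though replicate 4 gave the highest first and the lowest second share. Hmga1 placed 49.96% ± 2.25 (SD, n = 4) on its largest and 23.1% ± 3.04 on its second transcript. For Hmgb1 these were 44.7% ± 0.519 and 20.97% ± 0.472, with the smallest spread of the 10.

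For Zbtb18 the largest share, 33.4% ± 3.99 (SD, n = 4), belonged to a transcript of 100 bases, where length scaling gives few reads a large TPM. Arntl placed 57.9% ± 2.06 and 29.7% ± 3.57 on its first 2 transcripts, and Tcf12 38.4% ± 1.40 and 22.7% ± 2.24. Hif1a, the oxygen-sensitive factor, gave 63.4, 55.5, 51.7 and 53.1% for the first, with replicate 1 above the rest. Gtf2i, a general transcription factor, gave 51.4, 40.2, 41.02 and 39.7%, also with replicate 1 apart. Zeb2 divided its signal into 38.1% ± 2.43, 23.6% ± 5.32 and 18.5% ± 2.77. Usf1 was the most divided, with 20.4% ± 4.15 on the largest of 10 transcripts. Libraries of 50-base read pairs place reads that fit several transcripts by estimate, so a share is less certain than the gene's sum.

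**Figure D5:**
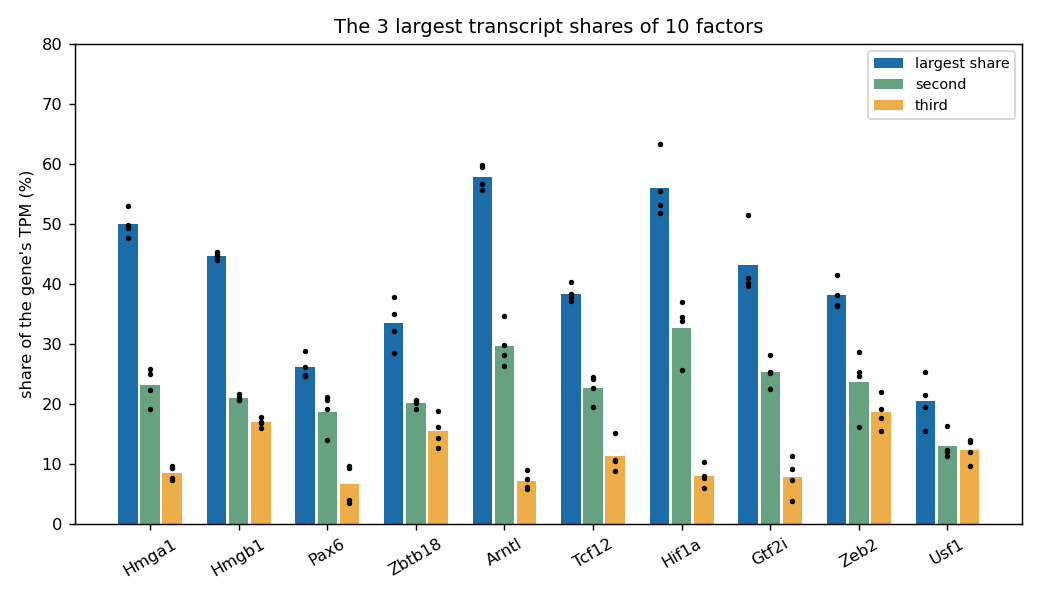
Share of the gene's TPM (vertical axis, %) held by the 3 largest transcripts of 10 listed factors, as the mean of 4 control libraries (bars from 0) with 1 point per library. Arntl and Hif1a put over 55% on 1 transcript, while Usf1 puts about the same share on the next 2, 13.0% and 12.3%.

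The spread between libraries shrank with the level. The median CV was 17.5% for genes of 1 to 10 TPM, 6.71% for 10 to 100 TPM, 4.39% for 100 to 1000 TPM and 3.06% above that. The common biological coefficient of variation fitted by edgeR, which removes the counting part, was 0.0567 over 14733 genes. Listed genes of at least 10 TPM had a median CV of 6.32%, close to the 6.11% of all genes at that level. The steadiest of them were Creb1 at 84.6 ± 0.507 TPM (SD, n = 4), the p53 target Phlda3 and the homeodomain gene Zeb2 at 116 ± 0.796 TPM.

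Among 11341 genes of at least 5 TPM, the 10 of largest biological spread included genes whose reads may be shared with a near copy. Fam220a gave 25.8, 3.51, 2.82 and 0.899 TPM. Fam220a and Nnt, the mitochondrial transhydrogenase gene, each appear under a second gene identifier, and the summed levels had CVs of 7.94% and 4.69%. The processed pseudogene Gm13370 gave 623, 233, 170.3 and 62.7 TPM, Gm4202 40.5, 9.76, 57.3 and 33.6 TPM and Gm10698 25.3, 56.4, 102 and 88.2 TPM. Of the 40 genes of largest spread 17 were pseudogenes, against 3.49% of all genes ranked. Rps27, which encodes a ribosomal protein and has the near copy Rps27rt, gave 174, 156, 87.3 and 24.8 TPM. Gm45837, Pagr1a and CR974586.5 completed the group, with biological CVs of 0.768, 0.675 and 0.541.

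Ccl4 was the one signalling gene in that group. This chemokine gene, made by activated microglia and macrophages, gave 21.00, 32.4, 14.6 and 5.02 TPM, from 38 to 195 read pairs. Replicate 2 was highest and replicate 4 lowest. In the same libraries the 10 microglial markers summed to 9.91, 11.8, 7.69 and 5.81 TPM, and their part in the Ccl4 values was not tested. At the other end, Ezh2, the histone methyltransferase of Polycomb complex 2, Nmt2, Capns1, Casc4 and Rbm17 had the smallest biological CVs, all 0.0388 or 0.0389. The edgeR fit shares information between genes, so values this close do not order single genes. On TPM the CV was 2.09% for Ezh2 but 7.40% for Rbm17, against a median of 4.39% for genes of 100 to 1000 TPM.

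Neurogenic markers were mostly highest in the same library. Of 19 neurogenic precursor markers of at least 1 TPM, 15 were highest in replicate 1, and of 12 photoreceptor precursor markers 9. Over all 14183 genes of that level replicate 1 was highest for 25.2%. Some markers stand in both lists. Amacrine markers were highest in replicate 1 in 9 of 17 and lowest in replicate 4 in 10, against 20.8% of all genes lowest in replicate 4. For G2 and M genes replicate 3 was lowest in 11 of 18 and highest in none, while replicates 2 and 4 held the maximum in 9 and 7. Replicate 3 was also lowest for 11 of 17 Müller glia and 11 of 20 progenitor markers. Over all genes replicate 3 was lowest for 24.8% and highest for 25.7%, and replicates 2 and 4 were highest for 21.2% and 28.03%. The summed level of the neurogenic list was 2148, 1872, 1861 and 1888 TPM in replicates 1 to 4. That of the G2 and M list was 1127, 1239, 1092 and 1215 TPM. Genes of 1 library share its cells and depth and are not replicates, and these patterns were seen first and counted afterwards.

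Y-linked genes were present at like levels in all 4 libraries. The translation factor gene Eif2s3y gave 50.6, 47.6, 52.8 and 47.9 TPM, the helicase gene Ddx3y 39.1, 43.98, 42.1 and 40.3 TPM, and Uty and Kdm5d measured 15.9 ± 1.99 TPM and 11.8 ± 1.02 TPM (SD, n = 4). Their X-linked partners Eif2s3x, Ddx3x, Kdm6a and Kdm5c measured 212 ± 9.60 TPM, 426 ± 18.03 TPM, 105 ± 3.57 TPM and 93.7 ± 4.82 TPM. No library lacked Y-linked RNA.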

How the data were processed

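RNA of 4 control libraries was measured. The authors' deposited files hold expected counts of read pairs and TPM for 117135 transcripts, made with salmon per the labels; its version, index and use of strand are not given in the sources used here. The transcript files name no genes. The authors' deposited table gives genes with symbols, coordinates and the mean signal over all 8 RNA libraries (normalised counts, made with DESeq2 per the labels). Transcripts were joined to genes by the run of neighbouring transcripts whose summed counts reproduced that mean within a relative 5e-09 (2e-08 in a second pass). Of 16815 genes whose mean reached 5, 16808 were joined, holding 99.7% to 99.8% of TPM. The joined genes were 15683 protein-coding genes, 1124 pseudogenes and almost no others. With means moved on purpose, 1.67% of genes still found a run. On simulated data 99.99% were joined, all correctly. Genes below that mean were not ranked. In the table and in RefSeq GRCm38.p6, coordinates overlapped for 99.9% of 30208 genes matched by symbol and chromosome.

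TPM were summed per gene, and CV and ranks were computed over 4 libraries (Python 3.11.15, pandas 2.3.3). Dispersion was fitted with edgeR 4.0.16 on counts rounded to whole numbers. DESeq2 1.42.0 size factors, trimmed-mean (TMM) scaled CPM, other filters and leaving out each library were alternatives. Dropping transcripts under 300 bases was an alternative chosen after seeing the data. Depth was 21405714 to 27132514 pairs per library, and read pairs without molecular identifiers are not independent molecules. Named genes are the 20 highest, the 5 highest of each marker or pathway list, the 20 highest factors and 3 per family, the 10 of largest and 5 of smallest biological CV, and up to 10 factors whose largest transcript share was under 60%. Promoters on chromosome 18 were not shown, and some genes that these rules name are not reported here. Others were added for their known role, some after their values were seen. The members and lists were chosen with earlier results of these data known.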

Additional observations from a re-analysis of the deposited data

Results flagged for a closer look

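In a group of 4, a library was singled out when its gap to the nearest other exceeded the share of the whole range that Dixon's table gives at 95%. Of 185 named genes, 10 (5.41%) had such a library, and chance flags about 1 in 20. The share was 5.57% over all 9822 genes of at least 10 TPM. Fam220a, a gene with a second identifier, was highest in replicate 1 at 25.8 TPM, against 0.899 to 3.51 TPM in the others. Neurod1, a neurogenic bHLH gene, was highest in replicate 1 at 261 TPM, against 224 to 228 TPM in the others. Pax2, an astrocyte and optic stalk factor gene, was lowest in replicate 1 at 1.23 TPM, against 1.25 TPM in each of the others. Rax, a progenitor homeodomain gene, was highest in replicate 1 at 221 TPM, against 184 to 185 TPM in the others. Sox4, a Sox factor gene of young neurons, was highest in replicate 1 at 220.2 TPM, against 203 to 206 TPM in the others. CR974586.5, an unplaced-scaffold gene of large spread, was highest in replicate 3 at 15.1 TPM, against 4.49 to 6.27 TPM in the others. Esam, an endothelial adhesion gene, was highest in replicate 3 at 5.55 TPM, against 2.70 to 3.08 TPM in the others. Ube2c, a mitotic gene, was lowest in replicate 3 at 85.1 TPM, against 105 to 108 TPM in the others. Crybb3, a lens crystallin gene, was highest in replicate 4 at 14.5 TPM, against 10.5 to 10.9 TPM in the others. Fcer1g, a microglial receptor subunit gene, was lowest in replicate 4 at 0.128 TPM, against 1.96 to 2.14 TPM in the others. Replicate 1 was the outlying library for 5 of the 10. Over the 9822 genes replicates 1 to 4 were outlying for 200, 102, 107 and 138 genes.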

How the results depend on the processing

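No paired analysis was possible because only 1 group was described. By TMM-scaled CPM, which is not per length, 44 of the 100 highest genes stayed among the 100 highest. Of 20 factors 14 stayed, and 5 cell type lists in place of 4 had a median above that of all genes, amacrine being the added one. The homeodomain list and the list of G1 cyclins and kinases crossed the median of all genes in the same way, and the stress list no longer had the highest median. Leaving out 1 library kept 99 to 100 of the 100 genes and all 20 factors, and 4 lists stayed above.

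The median CV of genes of at least 1 TPM was 7.83% on TPM, 6.07% on TMM-scaled CPM, 6.07% with DESeq2 size factors, 9.37% with no filter on low values, and 6.89% to 7.77% without 1 library. The common biological CV was 0.0483 to 0.0635 without 1 library, the lowest without replicate 1. The median largest transcript share was 70.4% over transcripts of at least 1 TPM, 85.0% by read pairs, and 67.6% to 69.6% without 1 library. A mean of at least 0.5 TPM kept 15235 genes, 1 TPM in every library 13480 genes and 10 read pairs in every library 14744 genes. The lowest correlation between libraries was 0.979 with a pseudocount of 0.1. Of 185 named genes, 6 moved by over 1 SD without transcripts under 300 bases (mt-Atp8, mt-Nd4l, Zbtb18, Notch1, Usf1 and Nr4a2), and none without 1 library. Genes of few read pairs, such as Pou4f2, cannot be ranked among themselves at this depth.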
